A study of Rattus norvegicus with 11 samples.

Results

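The Fos and Jun subunits of the AP-1 transcription factor were measured in the medial prefrontal cortex (mPFC) of rats that had self-administered heroin and of their yoked saline controls. The members are the 7 genes Fos, Fosb, Fosl1, Fosl2, Jun, Junb and Jund, found by the gene name that the array files give each probe. They are 7 of the 35581 names (genes, transcripts and sequence tags) in the files and are carried by 8 of the 41012 non-control probes, since Jund has 2 probes and every other gene has 1. RNA came from 6 heroin rats and 5 saline rats, 1 rat per single-colour Agilent array, while the methods give 6 rats in each group. All were males aged 4 months. The heroin rats had earned intravenous infusions by licking a spout in daily sessions, and each saline rat received saline whenever the heroin rat it was yoked to received heroin, so the saline rats neither controlled their infusions nor had any drug. All rats of both groups then spent 14 days in abstinence and were returned to the chambers for an extinction session without drug, directly after which the cortex medial to the forceps minor was collected. The strain is not given in the sources used here, and which saline rat was yoked to which heroin rat is not given either.

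AP-1 is a dimer of basic leucine zipper proteins that binds DNA at short palindromic sites. Fos proteins cannot pair with each other and need a Jun partner, whereas Jun proteins also pair among themselves. In cortical neurons, synaptic activity and calcium entry switch on Fos, Fosb and Junb transcription within minutes through the kinases ERK and CaMK and the factors SRF and CREB, and the transcripts are short-lived, so Fos mRNA is widely read as a mark of recent activity. Jund is present without stimulation, and a truncated Fosb product, delta-FosB, is known for building up in the brain during repeated drug exposure.

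Each probe is 60 nucleotides long, and its letters decide which subunit it reads. The files place the Fos probe at chr6:109564555-109564614 (plus strand) of the rat build rn3, the Fosb probe at chr1:78746783-78746842 (minus strand), and the Junb probe at chr19:24837607-24837666 (plus strand). The Jun probe lies at chr5:115363990-115364049 (minus strand) and the Fosl1 probe at chr1:208252280-208252339 (plus strand). The Jund probes lie at chr16:19239702-19239761 (A_42_P537443) and chr16:19240331-19240390 (A_43_P15517), both on the minus strand, and no position is given for Fosl2. Which exon or untranslated region each lies in, and whether the Fosb probe reads full-length Fosb, delta-FosB or both, was not determined here. The probes of the genes that the comparison turns on, and of the Fos relatives set beside them, read as follows, with no base marked.
Fos: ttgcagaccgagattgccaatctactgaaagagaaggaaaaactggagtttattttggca
Junb: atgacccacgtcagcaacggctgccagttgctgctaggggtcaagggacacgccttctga
Fosb: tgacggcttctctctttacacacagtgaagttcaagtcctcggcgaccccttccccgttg
Fosl2: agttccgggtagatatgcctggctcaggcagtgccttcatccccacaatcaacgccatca
Jund (A_43_P15517): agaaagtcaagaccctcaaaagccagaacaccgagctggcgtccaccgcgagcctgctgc
Over the 28 pairs that the 8 probes form, the longest run of bases shared on the same strand was 6.

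Promoter sequence from RefSeq (build GRCr8) was held for 5 members, Fosb, Fosl1, Fosl2, Junb and Jund. It is shown for Junb, which varied with Fos from rat to rat, and for Jund, the Jun gene that is known for expression without stimulation. The 250 bases before the start site were searched on both strands for the cyclic AMP response element TGACGTCA, for its shorter form TGACG, which lies inside it, for the AP-1 site TGANTCA, for the CArG box bound by SRF, and for the core-promoter string TATAA. The Junb window lies at chr19:40080876-40081125 (plus strand) and the Jund window at chr16:18769772-18770021 (minus strand), with the matches to TGACG or TGACGTCA on either strand in capitals.
Junb: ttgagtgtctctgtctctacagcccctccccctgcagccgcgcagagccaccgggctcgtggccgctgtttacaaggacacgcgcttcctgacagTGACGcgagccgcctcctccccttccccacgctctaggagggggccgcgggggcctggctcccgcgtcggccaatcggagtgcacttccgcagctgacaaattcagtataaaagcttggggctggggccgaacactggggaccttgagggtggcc
Jund: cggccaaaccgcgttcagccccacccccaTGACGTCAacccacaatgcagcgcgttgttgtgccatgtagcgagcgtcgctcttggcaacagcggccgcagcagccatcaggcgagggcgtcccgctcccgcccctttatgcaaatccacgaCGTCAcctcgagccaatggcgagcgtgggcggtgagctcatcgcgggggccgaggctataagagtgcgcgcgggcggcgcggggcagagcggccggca
TGACGTCA occurred in 1 of the 5 windows, that of Jund, where its first base lies at position -221 from the start, and it occurs in 1.59% of the 33469 promoters of the table. TGACG occurred in 3 of the 5 (Fosl1, Junb and Jund) and in 18.2% of all promoters. TATAA was found in the windows of Fosb, Junb and Jund, at -179, -49 and -42, against 24% of all promoters. TGANTCA and the CArG box were in none of the 5, against 6.34% and 1.5% of all promoters. A match is a run of letters, not a site shown to be bound.

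Signal is given in multiples of each array's median over all non-control probes (array medians), the scaling the methods used. Arrays ranged in median from 42.7 to 83.2 intensity units, and 25555 probes were detected on all 11 and tested with limma. On this scale the median tested probe was itself 0.18 higher on the log2 scale in heroin rats, against 0.01 after quantile normalization and -0.03 with the 75th percentile as the divisor, so each change is also given after quantile normalization. All 8 member probes were well above background on all 11 arrays, none was saturated, and all 8 were tested. The Fos probe averaged 42.4 times the lowest signal well above background and the Junb probe 28.3 times. The Fosl1 probe averaged 2.07 times that limit and came within 1.18 times on its dimmest array. The tissue was checked against 33 marker genes of neurons, oligodendrocytes, astrocytes, microglia, endothelium, blood and striatum, of which 27 were detected on all arrays. The neuronal markers Snap25, Camk2a, Slc17a7 and Gad1 were among them. So were the striatal markers Ppp1r1b, Adora2a and Rgs9, while Drd2, the remaining striatal marker, was detected on 8 arrays. None of the 27 was past the study's thresholds for a change, where 2.72% of all tested probes were. With so few genes this count cannot be told apart from that share. The summed oligodendrocyte markers ranged from 343 to 860 array medians in heroin rats and from 287 to 907 in saline rats, and their median change was -0.01, or -0.25 after quantile normalization. The 3 tested striatal markers summed to between 7.18 and 10.5 in heroin rats and between 7.22 and 21.2 in saline rats. The spread was wider in saline rats for Rgs9 (5.65 ± 4.32 SD, heroin 4.63 ± 0.809) and Adora2a (2.84 ± 1.74, heroin 2.22 ± 0.392). It was not wider for Ppp1r1b (2.06 ± 0.265, heroin 2.08 ± 0.342). Which saline rat had the highest sum is not given here. The part of cell makeup in the results was not tested, and in bulk tissue fewer cells of a type and less RNA per cell cannot be told apart.

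Fos and Junb had the largest differences of the 8 probes with the 50th percentile, 0.58 and 0.43 on the log2 scale (heroin minus saline), while after quantile normalization Fosl1 at 0.35 and Fos at 0.34 came first. No member was past the study's pair of thresholds, an unadjusted p under 0.02 with a change of at least 1.4-fold. That is 0 of 8 member probes, where 2.72% of all tested probes were past both. At an unadjusted limma p under 0.05 it was 1 of 8, Fos, against 18.5% of all probes, and at an adjusted p under 0.05 it was 0 of 8, against 0% of all probes. The groups overlapped for all 8, and 1.78% of all probes had groups that did not overlap. Changes were above 0 for 7 of the 8 with the 50th percentile, beside 20114 of all 25555 tested probes. After quantile normalization they were above 0 for 4 of the 8, beside 13590 of the 25555. The median change of the 8 was 0.22 and then 0.10, beside 0.18 and 0.01 over all tested probes.

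**Figure D1:**
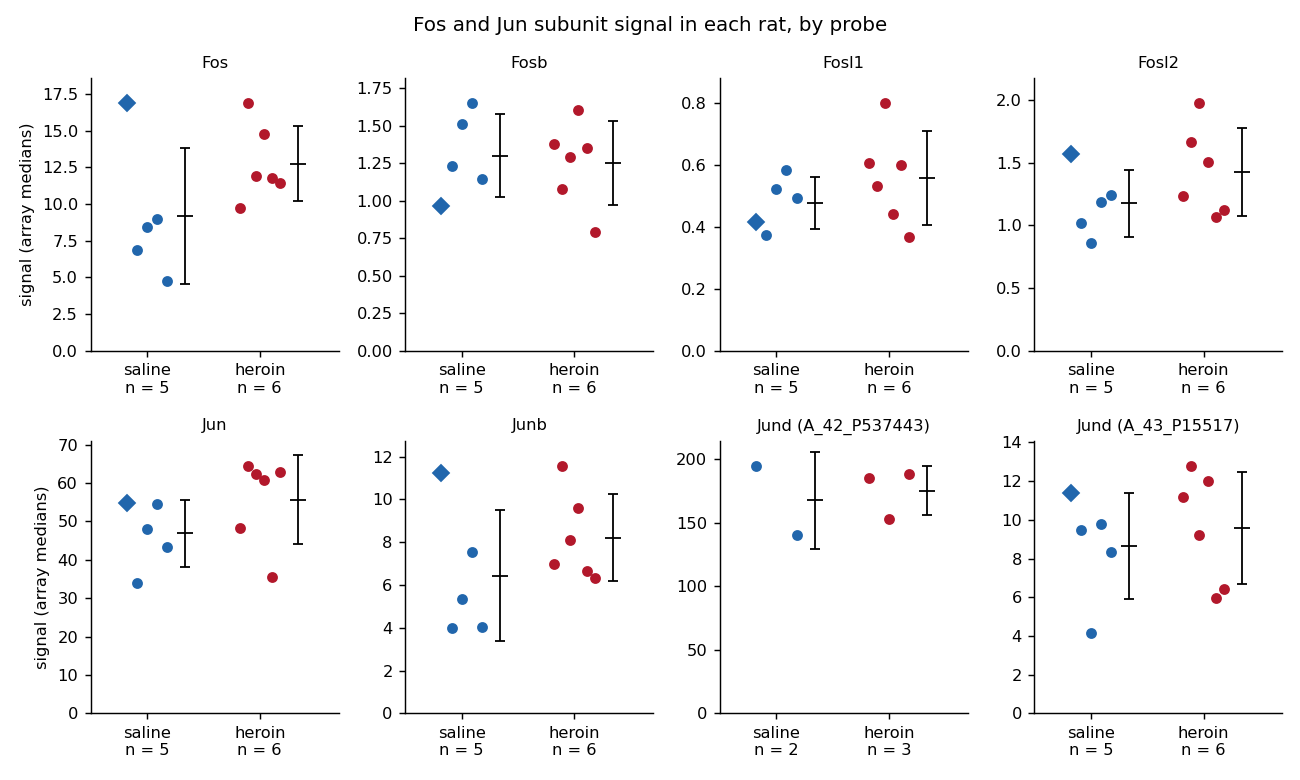
Signal of each probe in array medians (vertical axis, from 0, a separate scale per panel) in every saline (blue) and heroin (red) rat with a usable spot. Bars are the mean and SD, and the diamond is saline replicate 2, which reached 16.9 array medians in Fos while the other 4 saline rats lay at or below 9.01.

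Fos encodes the founding Fos protein and is the member most used as a marker of neuronal activation. Its signal in the saline rats was 16.9 array medians in replicate 2, 6.84 in replicate 3, 8.43 in replicate 4, 9.01 in replicate 5 and 4.76 in replicate 6. In the heroin rats the lowest was 9.76, the median 11.9 and the highest 16.9. Every heroin rat lay above 4 of the 5 saline rats, while saline replicate 2 was level with the highest heroin rat. The means were 12.8 ± 2.58 (SD, n = 6) in heroin and 9.18 ± 4.61 (SD, n = 5) in saline rats. The log2 difference was 0.58 (standard error 0.25, 95% interval 0.04 to 1.12), a 1.5-fold difference. The limma test gave p = 0.0369 (adjusted p = 0.263) and an exact permutation test over all 462 divisions of the rats gave p = 0.0866, two-sided. Less the median shift of all probes the difference was 0.40, and after quantile normalization it was 0.34 (standard error 0.28, 95% interval -0.26 to 0.94, exact permutation p = 0.310).

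Leaving out saline replicate 2 took Fos past the thresholds. Without this rat the log2 difference was 0.83 (standard error 0.20, limma adjusted p = 0.509), past both thresholds, and it was 0.64 (standard error 0.17, limma adjusted p = 0.965) after quantile normalization, again past both. Without saline replicate 6, the lowest rat, it was 0.38. With saline replicate 2 left out, 1.34% of all probes were past both thresholds with the 50th percentile and 0.994% after quantile normalization. The heroin and the other saline rats then no longer overlapped in Fos, as in 2.01% of the probes measured on all arrays. This rat was singled out after its Fos value had been seen. By Dixon's test it was not an outlier in any of the 7 member probes measured on all arrays. With 5 saline rats that test can miss an outlier, so it does not show that the rat was ordinary.

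Junb encodes a Jun protein that is induced by activity alongside Fos and forms a weaker activator than Jun. The saline rats had 11.3 array medians in replicate 2, 3.98 in replicate 3, 5.34 in replicate 4, 7.55 in replicate 5 and 4.05 in replicate 6. The heroin rats ranged from 6.31 through a median of 7.55 to 11.6. As in Fos, saline replicate 2 was the highest saline rat, and here replicate 5 also lay within the heroin range. The means were 8.20 ± 2.04 (SD, n = 6) in heroin and 6.43 ± 3.05 (SD, n = 5) in saline rats, a log2 difference of 0.43 (standard error 0.25, 95% interval -0.11 to 0.98). Neither limma (p = 0.108, adjusted p = 0.319) nor the exact permutation test (p = 0.182) separated the groups, and the difference was 0.21 after quantile normalization (95% interval -0.37 to 0.80). Without saline replicate 2 it was 0.67 (standard error 0.21, limma adjusted p = 0.509) and, with quantile normalization as well, 0.50 (standard error 0.18), past both thresholds each time. Fos and Junb were the 2 of 8 member probes past them in those fits.

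Jun encodes c-Jun, the main partner of Fos and the substrate of the JNK kinases. Its probe was spotted 10 times per array, with 7 to 10 usable spots, and the SD over the spots of an array was between 0.04 and 0.10 on the log2 scale. Signal was 54.8, 33.9, 48.0, 54.5 and 43.3 array medians in saline replicates 2 to 6, and from 35.5 through a median of 61.6 to 64.5 in heroin rats. Of the heroin rats, 4 lay above every saline rat, and heroin replicate 5 lay near the lowest saline rat. The log2 difference was 0.24 (standard error 0.18, 95% interval -0.15 to 0.62, limma p = 0.205, adjusted p = 0.408), and the exact permutation test gave p = 0.240. After quantile normalization it was -0.00058 (95% interval -0.35 to 0.35). The heroin mean was 55.7 ± 11.5 (SD, n = 6) and the saline mean 46.9 ± 8.69 (SD, n = 5).

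Jund encodes the Jun protein that is expressed without stimulation and that pairs with delta-FosB. On its brighter probe, A_42_P537443, the software marked the spot as non-uniform on all but 5 of the 11 arrays. The usable values were 195 and 141 array medians in saline replicates 5 and 6, and 185, 153 and 188 in heroin replicates 1, 5 and 6. The 3 heroin rats lay between the 2 saline rats, and the log2 difference was 0.08 (standard error 0.23, adjusted p = 0.841 in limma). With the marked spots kept it was 0.22 (standard error 0.16). The other probe, A_43_P15517, had values of 11.4, 9.5, 4.15, 9.77 and 8.32 in saline replicates 2 to 6 and from 5.94 through a median of 10.2 to 12.8 in heroin rats. Its groups overlapped over most of their range, with saline replicate 4 the lowest of all. The log2 difference was 0.17 (standard error 0.26, 95% interval -0.39 to 0.73, limma adjusted p = 0.684) and -0.06 after quantile normalization.

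Of the Fos relatives, Fosl2 encodes Fra-2, a Fos protein without a strong activation domain. It had 1.57, 1.02, 0.859, 1.19 and 1.25 array medians in saline replicates 2 to 6, and from 1.07 through a median of 1.37 to 1.97 in heroin rats. Saline replicate 2 was again the highest of its group, with heroin replicates 2 and 3 above it and the other heroin rats below. The log2 difference was 0.27 (standard error 0.19, 95% interval -0.13 to 0.67, limma adjusted p = 0.374), or 0.21 after quantile normalization. Fosl1 encodes Fra-1, which is low in brain. Its probe gave 0.416, 0.374, 0.524, 0.583 and 0.495 array medians in saline replicates 2 to 6 and from 0.367 through a median of 0.567 to 0.801 in heroin rats. The log2 difference of 0.20 (standard error 0.19, 95% interval -0.21 to 0.60, limma adjusted p = 0.508) was 0.35 after quantile normalization but -0.02 with the 75th percentile, so its direction depended on the scaling.

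Fosb, the source of both FosB and delta-FosB, was the member whose mean was lower in heroin rats with the 50th percentile. Its values were 0.967, 1.23, 1.51, 1.65 and 1.14 array medians in saline replicates 2 to 6, and from 0.789 through a median of 1.32 to 1.6 in heroin rats. The highest rat was a saline rat and the lowest a heroin rat, with the rest intermixed. The log2 difference was -0.06 (standard error 0.19, 95% interval -0.47 to 0.34, limma adjusted p = 0.832), -0.09 after quantile normalization, and 0.06 without heroin replicate 6. The upper end of that interval, 0.34, lies below a 1.4-fold rise. In saline replicate 2, the rat with the highest saline signal for Fos, Junb, Jun, Fosl2 and the A_43_P15517 probe of Jund, the Fosb signal was the lowest of the 5 saline rats.

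**Figure D2:**
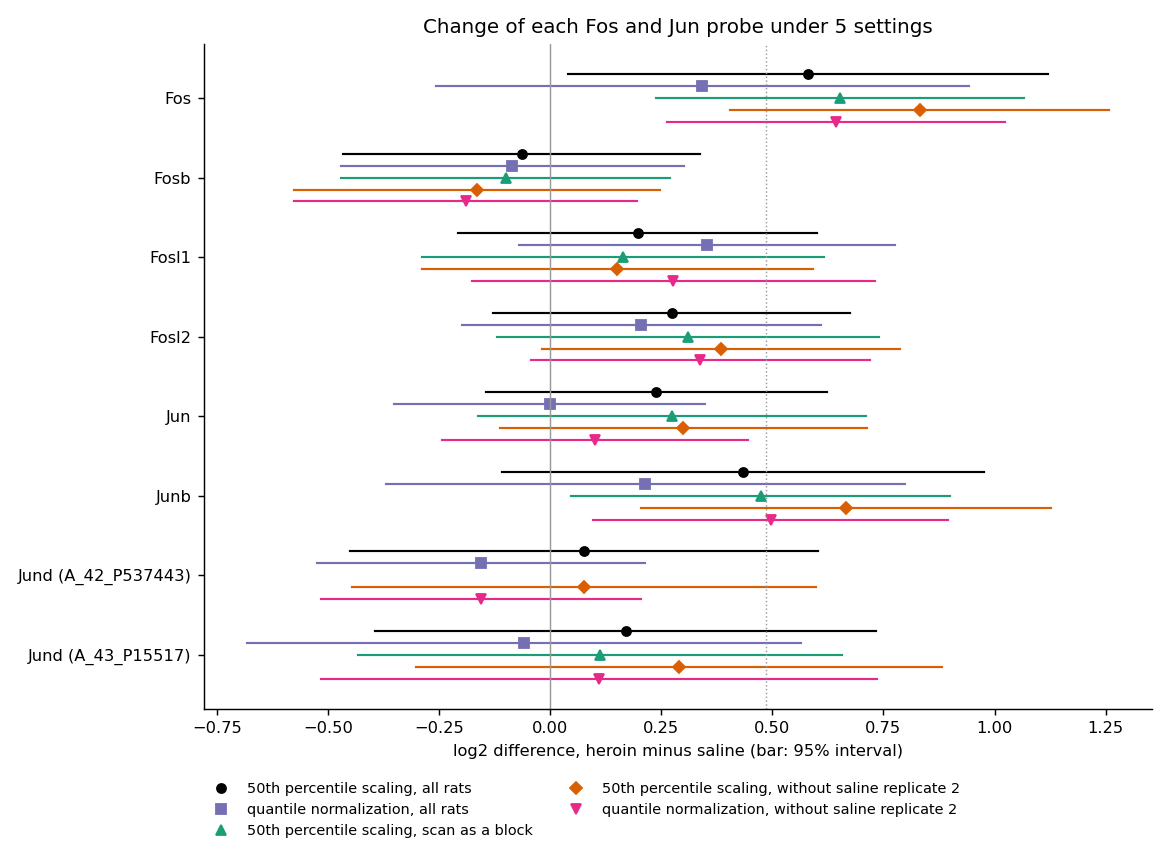
Log2 difference, heroin minus saline, of each probe (marker) with its 95% interval (bar) under 5 settings, with a solid line at 0 and a dotted line at a 1.4-fold rise. Fos lies at 0.58 with all rats and 0.83 without saline replicate 2, Junb at 0.43 and 0.67, and the intervals of the other probes include 0 under every setting drawn (the brighter Jund probe has no fit with the scan as a block).

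Each of the 5 saline arrays shared a scan with the heroin array of the same replicate number, and heroin replicate 1 was scanned alone, so the comparison can be made within scans. In Fos the heroin rat was higher than the saline rat in 4 of 5 scans, by 0.80, 0.81, 0.39 and 1.26 on the log2 scale in the scans of replicates 3, 4, 5 and 6, and the difference was -0.0018 in the scan of replicate 2. After quantile normalization that scan gave -0.41 and the other 4 remained above 0. The heroin and saline rats of the scan of replicate 2 were each the highest of their group. With the scan as a block, over the 10 rats that shared scans, the difference in Fos was 0.65 (standard error 0.19, limma adjusted p = 0.457), past both thresholds, as were 3.13% of all probes. After quantile normalization the blocked value was 0.42 (standard error 0.19), which is not past them.

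Junb was higher in the heroin rat in 4 of 5 scans, from -0.18 (scan of replicate 5) to 1.03 (scan of replicate 3), and its blocked difference was 0.47 (standard error 0.20, limma adjusted p = 0.457), not past both thresholds. Jun was higher in 4 of 5 scans (-0.62 to 0.88) but in 3 of 5 after quantile normalization. Fosl2, Fosl1 and Fosb were higher in 3 of 5 scans, each in 2 of 5 after quantile normalization, and the A_43_P15517 probe of Jund in 2 of 5, where the scan of replicate 4 gave 1.53 and the others between -0.72 and 0.17. The blocked fit left 1 of 8 member probes past both thresholds, Fos. Weighting each array by its consistency (limma array weights) left 2, Fos and Junb, but called 9.74% of all probes by the thresholds and 33% at an adjusted p under 0.05. With quantile normalization and with the 75th percentile 0 of 8 were called, against 1.79% and 3.05% of all probes. Those called higher in heroin rats were 0.853% and 0.129% of all probes, so most calls with the 75th percentile were lower in heroin rats. In the file headers the array position was 4 for every heroin array and 3 for every saline array, so position and group cannot be told apart.

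**Figure D3:**
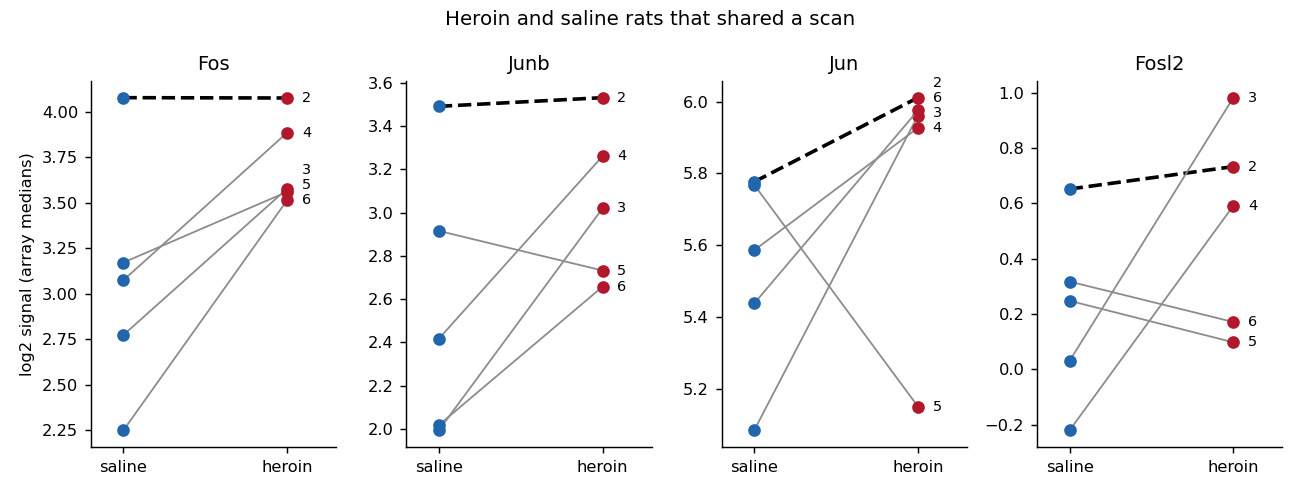
Log2 signal in array medians of the saline (blue) and heroin (red) rat of each shared scan for Fos, Junb, Jun and Fosl2, joined by a line and numbered by replicate, each panel on its own scale. The dashed line is the scan of replicate 2, flat in Fos, while the other 4 lines of Fos climb by 0.39 to 1.26.

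Whether members varied together from rat to rat was asked on deviations from each group's mean, after quantile normalization, with the A_43_P15517 probe for Jund. The 21 pairs had a median Pearson's r of 0.39 over the 11 rats, from -0.46 to 0.93, and 12 were above 0. Fos and Junb had the highest r. Saline replicate 2 was 1.21 above its group mean in Fos and 1.13 in Junb, heroin replicate 2 was 0.46 and 0.57 above, and saline replicate 6 was 0.69 and 0.42 below.

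For Fos and Junb Pearson's r was 0.93 (exact permutation within groups, p = 0.0017, adjusted p = 0.0357 over the 21 pairs) and Spearman's rho 0.75 (exact permutation p = 0.0172, adjusted p = 0.173). In the 6 heroin rats alone r was 0.90 (exact permutation p = 0.0125). Without the rats farthest from the median in Fos, heroin and saline replicate 2, r was 0.65, so much of the relation rests on these rats, which also shared a scan. With single rats left out r stayed between 0.81 and 0.94, but in 8 of the 11 such runs no pair had an adjusted p under 0.05. With the 50th percentile r was 0.92. Within the 5 scans that held both groups, the heroin minus saline differences after quantile normalization were -0.41, 0.42, 0.65, 0.57 and 0.90 in Fos and -0.35, 0.65, 0.69, 0.02 and 0.31 in Junb for replicates 2 to 6. The scan of replicate 2 was the lowest in both genes, and the scan of replicate 6, the highest in Fos, was not the highest in Junb. With 5 differences no r is given for them.

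Besides Fos and Junb, an unadjusted p under 0.05 was found for 4 of the 21 pairs, none with an adjusted p under 0.05. These were Fosl2 with Jun (r = 0.77, exact permutation p = 0.0112; rho = 0.81), Fosl2 with Jund (r = 0.73, exact permutation p = 0.0225; rho = 0.69), Fosl2 with Junb (r = 0.69, exact permutation p = 0.0330; rho = 0.60) and Jun with Junb (r = 0.68, exact permutation p = 0.0310; rho = 0.65). Without the rats farthest from the median in Fosl2, saline replicates 2 and 4, r was 0.76, 0.48 and 0.49 for the Fosl2 pairs. For Jun with Junb the rats farthest in Jun were heroin replicate 5 and saline replicate 3. Without them r was 0.77, with saline replicate 2 still included. All 10 pairs among Fos, Fosl2, Jun, Junb and Jund had r above 0 over the 11 rats, from 0.39 to 0.93, and from 0.29 to 0.92 with the 50th percentile. This did not hold without the rats farthest from the median in the first gene of each pair, where 3 of the 10 were below 0. Fosb and Fosl1 were set apart after the r values were seen, so the counts on either side do not test that split. By family the median r was -0.10 among Fos proteins, 0.16 between Fos and Jun proteins and 0.54 among Jun proteins. Of the probes measured on all arrays, 13.2% had an r with Fos at least as high as that of Jund, 0.39. Without heroin and saline replicate 2, r went from 0.50 to -0.20 for Fos with Fosl2, from 0.53 to -0.06 for Fos with Jun and from 0.39 to -0.25 for Fos with Jund, and from 0.54 to 0.11 for Junb with Jund. The relation of Fos to members other than Junb thus rests on these rats. Of the 10 pairs that Fosb and Fosl1 form with these genes, 9 had r below 0, over a range from -0.46 to 0.07, none with an unadjusted p under 0.05. With the 50th percentile 8 were below 0, from -0.18 to 0.25, among them Fosb with Junb at -0.0039 and Fosb with Jund at -0.0019, and r for Fos with Fosb was 0.34 without heroin and saline replicate 2. Between Fosb and Fosl1 r was 0.63 (exact permutation p = 0.0562), or 0.31 without heroin replicate 6 and saline replicate 2. The Fosb and Fosl1 probes averaged 5.01 and 2.07 times the lowest signal well above background, the Fosl2 probe 5.13 times, and the part of low signal in these r values was not tested.

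**Figure D4:**
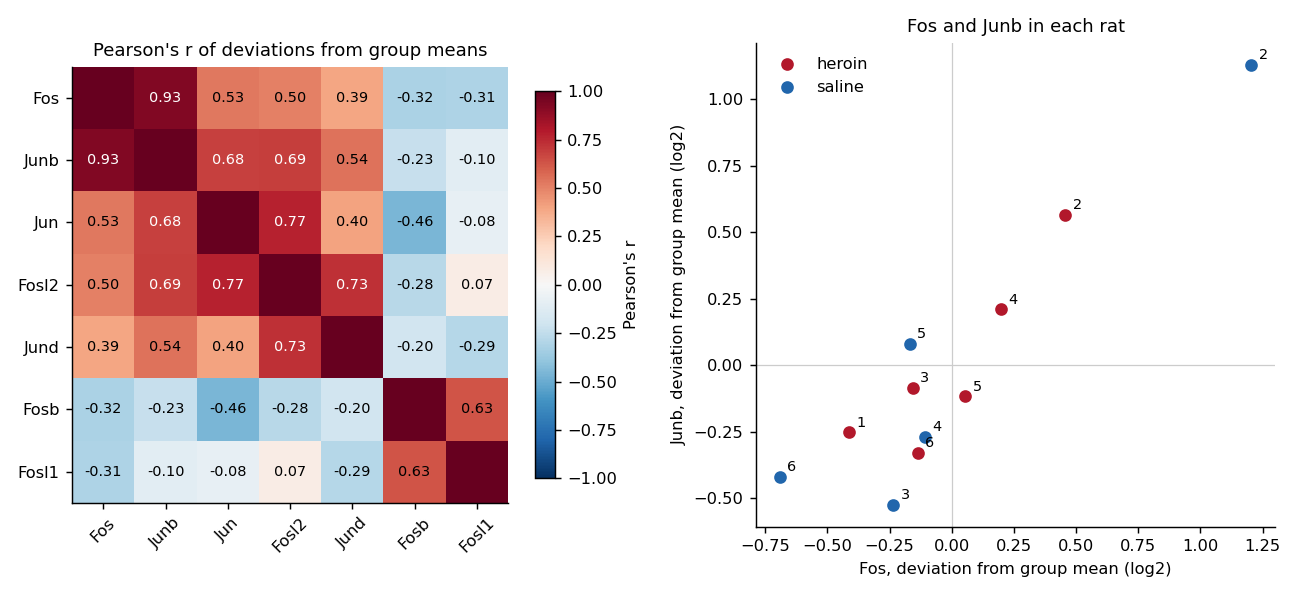
Left, Pearson's r of the deviations from group means for each pair of members over 11 rats (quantile-normalized log2 signal; red above 0, blue below). Right, the deviations of Fos and Junb in each rat (log2), heroin red and saline blue, numbered by replicate, with saline replicate 2 at 1.21 and 1.13 and r = 0.93 over all rats.

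The genes outside the family that varied most like Fos were found among 8538 named genes by the same r. They were Nr4a1 (r = 0.95), an orphan nuclear receptor and immediate-early gene, Myd116 (r = 0.93), a stress-induced phosphatase subunit, and Fbxo16, Exoc7 and Hnrpdl (r = 0.92 each). Nr4a1 and Myd116 were the ones among them with a higher r to Fos than Junb had. Most like Junb were Fbxo16 (r = 0.95), Myd116 (r = 0.94) and the immediate-early genes Ier2 (r = 0.94), Dusp1 (r = 0.93), a phosphatase of MAP kinases, and Cyr61 (r = 0.93), a matrix protein. The log2 difference between groups was 0.59 for Nr4a1 (0.35 after quantile normalization) and 0.59 for Dusp1 (0.37 after quantile normalization), beside 0.58 for Fos. It was 0.24 for Ier2 (0.00064 after quantile normalization) and 0.20 for Cyr61 (0.17 after quantile normalization). None of these genes was past the thresholds, and the genes were picked by r, so the r values describe these rats.

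Other immediate-early genes give a setting for Fos and Junb. Of 35 such genes 32 were tested, 11 were higher in heroin rats past both thresholds and 0 lower, and the median change was 0.43, or 0.24 with 4 called after quantile normalization. Over all tested probes 1.79% were higher past both thresholds, and 0.853% after quantile normalization. The smallest p among the 11 belonged to Nr4a3 (0.67), Bdnf (0.90), Egr1 (0.66), Egr4 (0.87) and Egr2 (1.02). Of these Bdnf, which encodes a neurotrophin, and Egr2 and Egr4, which encode zinc-finger factors, were past them after quantile normalization too, at 0.70, 0.78 and 0.57, and Egr4 not with the 75th percentile. Several of the 11 were picked by the study on these same arrays, so the count is not independent evidence of a direction. Of the other Nr4a3 probes 1 differed by 0.81 and 1 by -0.04. Egr4 and Nr4a1 were the brightest of the list.

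Among the bZIP factors that pair with Fos or Jun or block AP-1, 16 of 22 were tested and 0 were past both thresholds, with a median change of 0.10 and of -0.03 after quantile normalization. Over all tested probes 2.72% were past both, and with 16 genes a count of 0 cannot be told apart from that share. The brightest were Atf4 (0.28), the integrated stress response factor, and Nfe2l1 (0.32). Batf3, named Jdp1 on the array, a small AP-1 antagonist, differed by -0.37 (limma adjusted p = 0.263) and by -0.59 with scaling to the 75th percentile, the setting in which it was past both thresholds. In that setting 3.05% of all probes were past both and 0.129% were higher past both, so most calls were lower in heroin rats.

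Of the kinases and factors upstream of Fos and Jun, 26 of 30 were tested, and 1 was higher and 1 lower past both thresholds. The share past both over all tested probes was 2.72% in either direction. Mapk8, which encodes the kinase JNK1, was higher by 0.61 on its brightest probe (0.37 after quantile normalization, no longer past them), but its other probes differed by 0.05 and -5.5e-04. Map2k7, which encodes a kinase that activates JNK, was lower, with 0.596 ± 0.0883 array medians (SD, n = 6) in heroin against 0.988 ± 0.309 (SD, n = 5) in saline rats. The log2 difference was -0.67 (standard error 0.21, limma adjusted p = 0.263), or -0.66 after quantile normalization and -0.89 with the 75th percentile, past both thresholds each time. With the 75th percentile 3.05% of all probes were past both and 0.129% were higher past both, so most calls there were lower in heroin rats. The mean Map2k7 signal was below 1 array median in both groups, and the part of low signal was not tested. The brightest genes of the list, Mapk8ip1 (0.27) and Hras (0.32), were not called, and the median change was 0.25, or 0.01 after quantile normalization.

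Of 28 genes described elsewhere as targets of AP-1 or delta-FosB, 23 were tested, 2 were higher past both thresholds and 0 lower, with a median of 0.23, or 0.04 after quantile normalization. The share higher past both over all tested probes was 1.79%. Gria2, the AMPA receptor subunit that limits calcium entry, was higher by 0.57 (standard error 0.14) and Scg2, a secretory granule protein, by 0.56 (standard error 0.16). After quantile normalization they were 0.32 and 0.33 higher, below 1.4-fold. The other Gria2 probe was higher by 0.50. The brightest of the list, Gap43 (0.41) and Vgf (0.33), were not called.

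**Figure D5:**
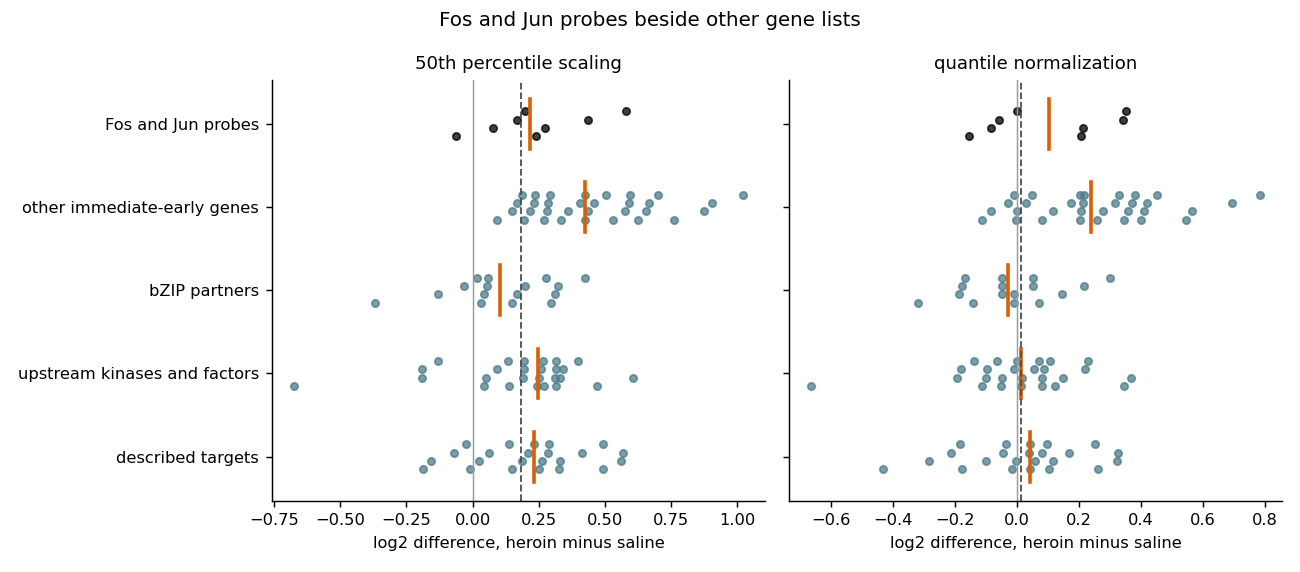
Log2 difference, heroin minus saline, of the 8 Fos and Jun probes (black) and of the tested genes of 4 lists (1 probe a gene), with the 50th percentile (left) and after quantile normalization (right). Orange bars are medians and the dashed line is the median of all tested probes, 0.18 and 0.01. The medians of the other immediate-early genes lie at 0.43 and 0.24 and those of the Fos and Jun probes at 0.22 and 0.10.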

How the data were processed

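The authors hybridised Cy3-labelled cRNA of each rat to an Agilent array and deposited, per spot, an intensity corrected for background by Feature Extraction 9.5.1.1 but not scaled between arrays. The deposited value table holds a ratio per probe and rat, made by the authors in GeneSpring, and served as an alternative. Following the methods, intensities below 5 were set to 5, spots of a probe were averaged as log2, and the 50th percentile of the non-control probes was set to 1 on every array. Control and marked spots were left out. Probes well above background (at least 0.5 of their spots) on all arrays, with at least 2 usable arrays a group, were tested with limma 3.58.1 in R 4.3.3 (two-sided), and p-values of the 25555 probes were adjusted by Benjamini-Hochberg. The fits were tested on simulated data. The paper's thresholds were an unadjusted p under 0.02 and 1.4-fold.

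Groups and replicate numbers came from the sample titles. Deviations of same-numbered arrays, which shared a scan, correlated between -0.24 and 0.38 over 25252 probes, so the numbers were not taken as pairs and the block is given as that of the scan. Correlations were tested by all 86400 within-group permutations. The number of arrays limits the precision. Members and gene lists were chosen with earlier results of these data known. All member probes are named, then of each list the genes past both thresholds (at most 5 per direction, smallest p) and the 2 brightest, and the 5 genes most like Fos, Junb and the brightest member, for which Jun stood in because the brightest Jund probe had 5 usable arrays. A gene's probe is its brightest tested one. Alternatives were other scalings, normexp (offset 50), flags, filters, the methods' t-test, array weights, blocks and leaving out each rat. Added after seeing the data were quantile normalization with the block or with each rat left out, the second Jund probe for correlations, and the overlap count without saline replicate 2. The split of Fosb and Fosl1 from the other members in the correlations was also made then. The rats tested after a shorter abstinence, the RT-qPCR and the behavior were not analysed here.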

Additional observations from a re-analysis of the deposited data

How the results depend on the processing

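The count of member probes past both thresholds, 0 of 8, was unchanged with the 75th percentile, quantile normalization, normexp and marked spots kept. The same count came with no filter on dim probes, the scan as a random block and the methods' t-test. The count was 2 with array weights, where 1 also had an adjusted p under 0.05, and 1 with the replicate block. It was 0 to 2 with each rat left out, with the 50th percentile and with quantile normalization, the 2 arising without saline replicate 2. The block could not be fitted for the A_42_P537443 probe of Jund, and slide as a block was not run, the scan standing in for it. Fos, Fosl2 and Junb stayed above 0 under every alternative run, and leaving out each rat moved Fos between 0.38 and 0.83 (0.17 and 0.64 after quantile normalization) and Junb between 0.29 and 0.67 (0.08 and 0.50). Fosb was 0.10 with array weights and -0.16 to 0.062 (-0.19 to 0.03) with each rat left out. Fosl1 was -0.02 with the 75th percentile. Jun was -0.00058 with quantile normalization and -0.098 to 0.10 with each rat also left out, against 0.13 to 0.36 with the 50th percentile. The A_42_P537443 probe of Jund was -0.040 with the 75th percentile, -0.16 with quantile normalization (-0.18 to -0.14 with each rat left out, 0.02 to 0.17 with the 50th percentile), -0.023 with the median of detected probes and -0.025 with normexp. The A_43_P15517 probe was -0.048, -0.059 (-0.34 to 0.11) and -0.021 under the first 3 of these, -0.10 with the replicate block and quantile normalization, and -0.08 to 0.30 with each rat left out. The covariation count, 1 pair, was 0 with Spearman's rho and 0 to 1 with each rat left out. With quantile normalization 4 other immediate-early genes, 0 bZIP partners, 1 upstream gene and 0 targets were called, and with the 75th percentile 3, 1, 1 and 0, against 11, 0, 2 and 2. Over all tested probes the shares called were 1.79%, 3.05% and 2.72%, and those higher in heroin rats 0.853%, 0.129% and 1.79%. The cause of these shifts was not tested.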

Other observations

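Saline replicate 2 had the highest saline signal in 5 of the 7 member probes measured on all arrays. Among the 31 other immediate-early genes measured on all arrays saline replicate 2 was the highest saline rat in 11 with the 50th percentile. After quantile normalization it was the highest in 19, while over all probes it was the highest in 12.5% and 25.5%. Saline replicate 5 was the highest in 15 and then 4 of the 31, and over all probes in 49.9% and 23.5%. For the 26 upstream kinases and factors the counts of saline replicate 2 were 2 and 9. They were 1 and 3 for the 16 bZIP partners and 2 and 5 for the 23 described targets.

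The genes that varied most like Jun from rat to rat, by the same r over 11 rats and 8538 named genes, were Mefv (r = 0.91), Psme1 (r = 0.88) and Eraf, Timm17b and Armc9 (r = 0.87 each). Their log2 differences between heroin and saline rats ranged from 0.0029 for Mefv to 0.28 for Eraf, none past the thresholds. No value of the member probes met Dixon's criterion for an outlier in the 14 groups tested, but with 6 heroin and 5 saline rats the test can miss an outlier.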
